A study of Homo sapiens with 4 samples.

Results

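Open chromatin was examined around 7 genes, the GATA factors GATA1, GATA2 and GATA3 and the genes TAL1, LMO2, ZFPM1 and LYL1, whose products work with them. They were chosen by name, out of 20163 protein-coding genes, and each was taken with its gene body and 100 kb on either side in the hg19 assembly. All 7 were kept, with no filter on low values. Their windows held 62 of the 78046 regions made by merging the peaks of all 4 libraries. The libraries were ATAC-seq libraries, in which the Tn5 transposase inserts adapters into open chromatin, from HL-60, a human promyelocytic leukemia line. The ATRA-treated cells received 1 µM all-trans retinoic acid (ATRA) for 4 days and the control cells received ethanol, its solvent, for the same 4 days. Each group had 2 replicates, called ATRA 1, ATRA 2, control 1 and control 2 here. Both groups were the same unmodified line, and the results speak of that line alone. The question was whether control-specific peaks with a GATA motif, which the ATRA-treated cells lacked as shared peaks, coincide with changes at the loci of the GATA factors themselves.

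GATA factors are zinc finger proteins that bind a short DNA motif, whose core spells their name. GATA2 acts in haematopoietic stem and progenitor cells and in mast cells, GATA1 in red cell, megakaryocyte, eosinophil and mast cell development, and GATA3 in T cells. TAL1 and its relative LYL1 are basic helix-loop-helix proteins that bind the E-box with an E-protein partner. LMO2 is a LIM-only protein that binds no DNA itself and bridges them to a GATA factor through LDB1. ZFPM1, also called FOG1, is a cofactor that binds GATA1 directly. Where a GATA factor and a TAL1 dimer sit on DNA together, a GATA motif often follows part of an E-box at a short, fixed distance.

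The lists gave a score for each peak, which was read only as a percentile, where 100 is the highest score of a library's own list. A peak found in both replicates of a group was called a shared peak. A shared peak of one group with no overlap with a shared peak of the other was called control-specific or ATRA-specific. A control-specific peak may therefore still occur in 1 of the 2 ATRA libraries. Motifs were searched on both strands in the 200 bp about a peak's centre. The GATA motif was counted where the letters AGATAA were found, and equally where the variant of it with another first base, spelled TGATAA, was found. The spellings AGATAG and TGATAG, with G as the last base, were not counted. A peak said to lack a GATA motif may therefore still hold them. The E-box, which is bound by TAL1, LYL1 and their partners, was searched as CAGNTG in this work. A composite was called where the E-box letters CTG stood 8 bases before a GATA motif of either spelling. For the myeloid factor PU.1 the search used the letters GAGGAAGT as its consensus. For the RUNX factors, which are active across blood lineages, it used AACCACA as consensus. For the CEBP factors, which act in granulocytes and their precursors, it used TTGCNNAA as consensus. The composite of E-box letters and GATA contains a GATA motif by its make-up, so those counts overlap.

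The 2 control-specific peaks with a GATA motif in the 7 windows are shown first, since the question turns on them. The first lay in an intron of GATA1, 3.2 kb downstream of the transcription start site (TSS), at chrX:48647945-48648311. The second lay between genes, 7.2 kb upstream of the TSS of TAL1, at chr1:47704825-47705364. The 200 bp about each centre are printed from the plus strand of hg19, chrX:48648028-48648227 and chr1:47704995-47705194, with capitals marking the GATA, PU.1, RUNX and CEBP motifs. The GATA1 intron held 1 GATA motif and 1 PU.1 motif. The TAL1 region held 2 GATA motifs on the minus strand, separated by 1 base, after a RUNX motif.
GATA1 +3.2 kb: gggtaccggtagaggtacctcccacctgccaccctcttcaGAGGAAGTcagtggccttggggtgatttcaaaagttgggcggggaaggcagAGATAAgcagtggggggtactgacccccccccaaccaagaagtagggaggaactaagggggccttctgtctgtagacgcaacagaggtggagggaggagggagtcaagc
TAL1 -7.2 kb: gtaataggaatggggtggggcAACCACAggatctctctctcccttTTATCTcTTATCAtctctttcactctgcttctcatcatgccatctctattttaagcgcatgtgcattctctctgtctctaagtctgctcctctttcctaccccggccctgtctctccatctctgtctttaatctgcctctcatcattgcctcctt

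Neither peak was found in an ATRA library. The GATA1 intron peak had a width of 367 bp and a percentile of 66.9 in control 1, and a width of 285 bp and a percentile of 18.0 in control 2. The TAL1 upstream peak had a width of 534 bp and a percentile of 81.0 in control 1, and a width of 328 bp and a percentile of 41.6 in control 2. Both ranked higher in control 1 than in control 2, and the GATA1 intron peak stood near the bottom of the control 2 list. As the lists held no read counts, depth was unknown, and in these bulk samples fewer cells with an open site and less opening per cell cannot be told apart.

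Across the 7 windows there were 38 peaks in ATRA 1, 47 in ATRA 2, 38 in control 1 and 34 in control 2. The order followed the length of the lists only in part. The longest list was that of ATRA 2 with 63541 peaks, against 43494 in ATRA 1, 42081 in control 1 and 45903 in control 2. The windows held 24 shared control peaks, of which 8 were control-specific, or 33.3% against 23.7% of all shared control peaks. They held 30 shared ATRA peaks, of which 14 were ATRA-specific, or 46.7% against 37.3% of all. Without 1 library, whose partner then stands for the group, the control-specific count ran from 4 without ATRA 1 to 14 without control 1 or control 2. The ATRA-specific count ran from 8 without control 2 to 26 without ATRA 1.

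A GATA motif was found in 2 of the 8 control-specific peaks, against 30.6% of all control-specific peaks. It was found in 0 of the 14 ATRA-specific peaks, against 14.7% of all, and in 4 of the 16 overlapping peaks, against 14.4% of all. Among regions seen in control libraries alone, including those seen in 1 library, 6 of 13 held the motif, against 34.2% genome-wide. Among regions seen in ATRA libraries alone, 1 of 19 held it, against 16.1%. These counts are too small to tell whether they differ from the genome-wide shares, and this was not tested. With the motif searched in the whole peak, 2 of the 14 ATRA-specific peaks held it. They were the LYL1 promoter peak and a peak in a STIL exon in the TAL1 window. With the upper 50% of each list by score, 2 of the 7 peaks then called ATRA-specific held it. By their percentiles these were the LMO2 regions 6.5 kb downstream and 79.1 kb upstream. The full lists had both in all 4 libraries, and the cut removed control peaks there.

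Of the 7 genes, 2 had a control-specific peak with a GATA motif in the window, GATA1 and TAL1, against 20.3% of all protein-coding genes. An ATRA-specific peak with the motif was found at 0 of the 7, against 21.1%. GATA1 and TAL1 each had 1 control-specific peak with the motif, as had 3390 genes in all, and a further 706 genes had more. A control-specific peak of any kind was found at 5 of the 7 genes, against 54% of all, and an ATRA-specific peak at 6, against 79.4%. There was a control-specific peak with no peak in either ATRA library at 3 genes, GATA1, GATA2 and TAL1, against 24.8%. None of the 7 lacked both kinds of specific peak, against 11.7% of genes.

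**Figure D1:**
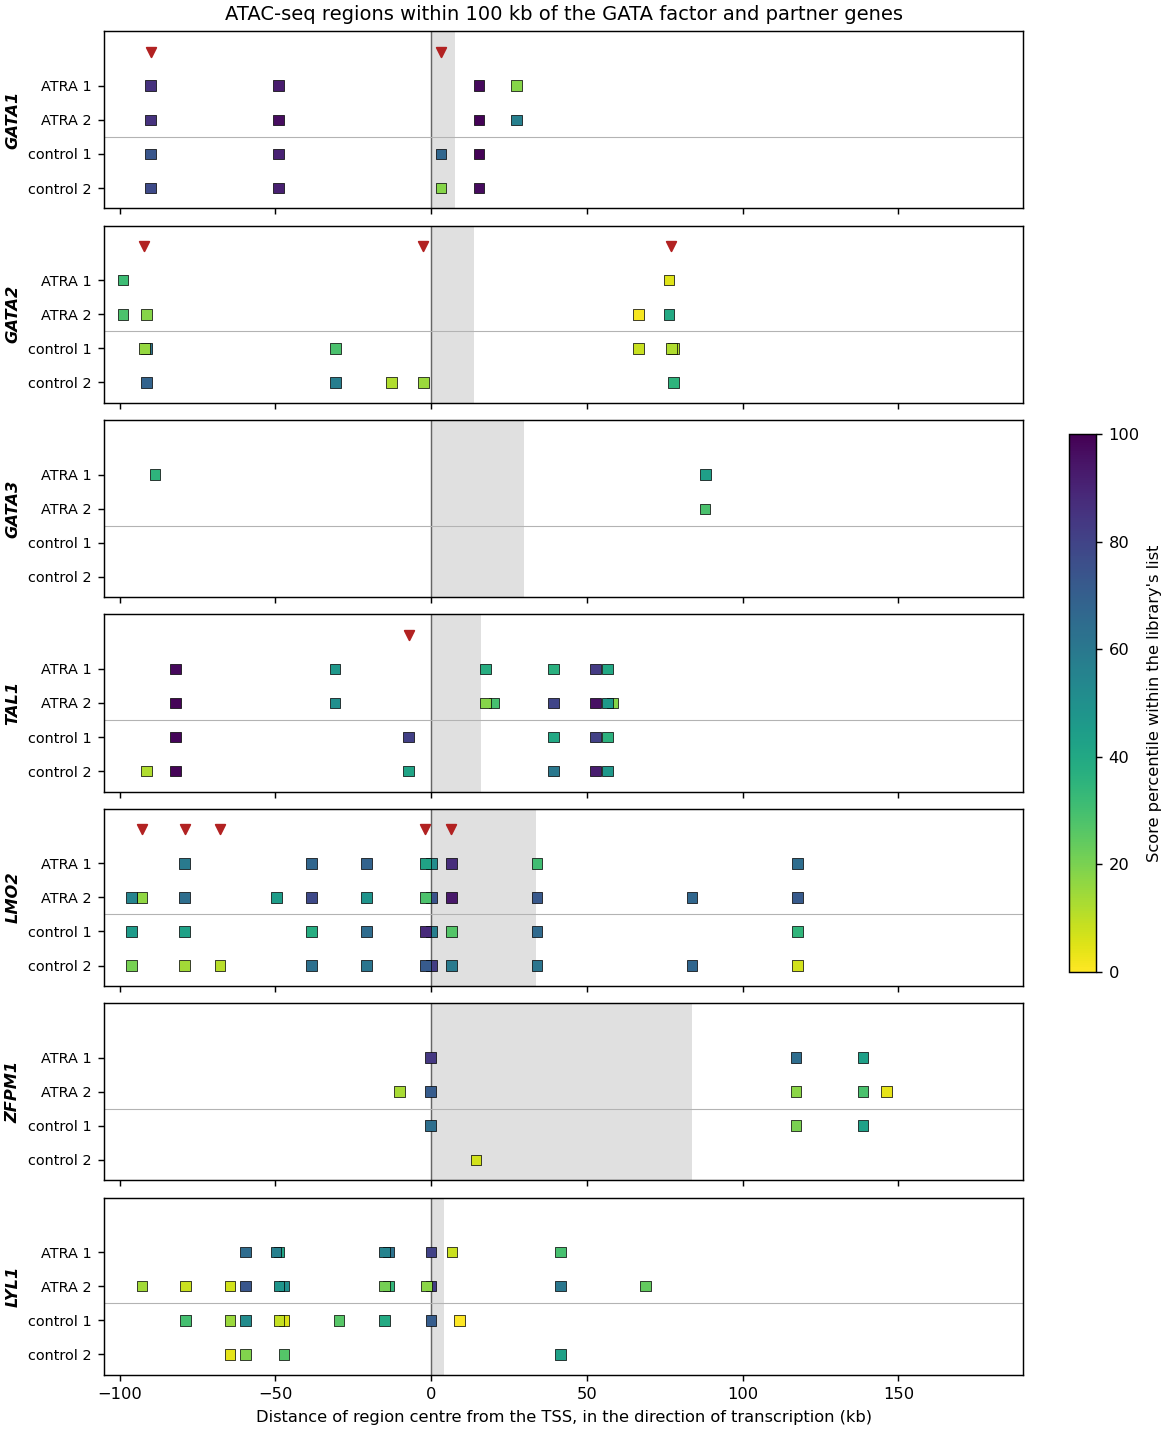
Regions with a peak in the windows of the 7 genes. Each square is a region with a peak in that library, placed by the distance of its centre from the TSS in kb and coloured by the score percentile within that library's list. Red triangles mark regions with a GATA motif and grey shading the gene body. GATA2, GATA3 and TAL1 have no region in the gene body, and the GATA2 window has no region found in all 4 libraries.

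GATA2 was the 1 member with more peaks in both control libraries than in both ATRA libraries, a pattern shown by 2.31% of genes. Its window held 2 peaks in ATRA 1, 4 in ATRA 2, 6 in control 1 and 5 in control 2. The groups did not overlap, at 3.0 ± 1.41 (SD, n = 2) for ATRA and 5.5 ± 0.71 (SD, n = 2) for control. The difference of -2.5 peaks had a two-sided exact permutation p = 0.333, the smallest that 2 against 2 libraries can give. The window had 3 control-specific peaks, and 3.37% of genes had more. It also had 2 ATRA-specific peaks, the median of all genes, and 0 overlapping peaks. No peak lay on the GATA2 promoter or in its gene body in any library.

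All 3 control-specific peaks of GATA2 lay between genes and held an E-box, which 52.0% of all control-specific peaks and 42.3% of all merged regions held. None held a GATA motif in the searched spellings, though the peak 77.7 kb downstream held the uncounted AGATAG and TGATAG. The peak 30.6 kb upstream, at chr3:128242405-128242830, had percentiles of 28.7 in control 1 and 57.6 in control 2, with widths of 272 and 426 bp, and no ATRA peak. It had 1 PU.1 motif and 2 CEBP motifs, the letters of factors of the myeloid lineage. The peak 77.7 kb downstream had percentiles of 11.6 in control 1 and 35.3 in control 2, with widths of 378 and 389 bp, and no ATRA peak. The peak 91.4 kb upstream had percentiles of 61.4 in control 1 and 68.7 in control 2, and of 18.3 in ATRA 2, with no peak in ATRA 1.

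The GATA2 window also held peaks that only the ATRA-treated cells had. The ATRA-specific peak 76.3 kb downstream had percentiles of 4.89 in ATRA 1 and 39.8 in ATRA 2, with a CEBP motif and an E-box. The ATRA-specific peak 98.9 kb upstream had percentiles of 31.4 in ATRA 1 and 28.4 in ATRA 2, with an E-box. Peaks of opposite class lay close together on the downstream side, where the ATRA-specific and the control-specific peak were centred 76.3 and 77.7 kb from the TSS.

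GATA motifs did occur in the GATA2 window, in 3 regions that were each found in 1 control library and so were no shared peaks. They lay 2.5 kb upstream (control 2, percentile 15.2), 77.1 kb downstream (control 1, percentile 11.8) and 92.1 kb upstream (control 1, percentile 16.0). None had a peak in an ATRA library, and all 3 stood low in their lists. The region 2.5 kb upstream, at chr3:128214335-128214668, was the nearest of all to the GATA2 TSS. It held 2 GATA motifs, 1 of them with the E-box letters at 8 bases, a composite found in 0.671% of all merged regions and in 1.87% of control-specific peaks.

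Just past the window's edge, 110.8 kb upstream of the GATA2 TSS at chr3:128322366-128323265, lay the control-specific GATA peak nearest to the gene. It had percentiles of 73.5 in control 1 and 72.3 in control 2, with widths of 719 and 795 bp. It was still found in ATRA 1, at a percentile of 20.1 and a width of 296 bp, and was missing in ATRA 2. Both control libraries thus ranked it far above the 1 ATRA library that had it. Being outside the 100 kb, it is not in the counts above, and a window of 150 kb, chosen after seeing the data, raised the control-specific peaks with a GATA motif from 2 to 3. The sequences of these 3 GATA2 regions, also chosen after their values were seen, show where letters of GATA and of myeloid factors occur. They are read from the plus strand of hg19 at chr3:128242518-128242717, chr3:128214402-128214601 and chr3:128322716-128322915, with the same motifs and the E-box letters of the composite in capitals.
GATA2 -30.6 kb: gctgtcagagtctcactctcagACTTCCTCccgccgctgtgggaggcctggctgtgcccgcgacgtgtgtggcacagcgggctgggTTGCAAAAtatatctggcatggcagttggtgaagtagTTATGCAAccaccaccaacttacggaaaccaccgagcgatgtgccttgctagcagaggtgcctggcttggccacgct
GATA2 -2.5 kb: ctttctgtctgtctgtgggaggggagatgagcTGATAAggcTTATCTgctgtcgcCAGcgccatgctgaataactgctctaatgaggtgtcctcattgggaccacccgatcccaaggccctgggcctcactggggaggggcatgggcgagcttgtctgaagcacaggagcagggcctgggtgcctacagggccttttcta
GATA2 -110.8 kb: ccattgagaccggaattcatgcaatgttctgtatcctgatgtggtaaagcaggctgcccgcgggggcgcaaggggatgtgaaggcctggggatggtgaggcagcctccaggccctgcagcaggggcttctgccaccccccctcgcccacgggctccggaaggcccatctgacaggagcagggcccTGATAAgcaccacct

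GATA1 had 6 peaks in ATRA 1, 4 in ATRA 2, 4 in control 1 and 5 in control 2, and the groups overlapped (5.0 ± 1.41 against 4.5 ± 0.71, SD, n = 2 each, two-sided exact permutation p = 1). The sign of the difference, 0.5 peaks, turned without ATRA 1, at -0.5. Beside the intron peak of the control cells, the window had 1 ATRA-specific peak, in an exon of the neighbouring HDAC6, 27.3 kb downstream. That peak had percentiles of 18.0 in ATRA 1 and 57.0 in ATRA 2. There was no peak on the GATA1 promoter in any library.

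The other 3 GATA1 regions were found in all 4 libraries and ranked high. The strongest was the promoter of HDAC6, a deacetylase gene, with percentiles of 97.3, 99.3, 99.3 and 97.2 in ATRA 1, ATRA 2, control 1 and control 2. The promoter of SUV39H1, a histone methyltransferase gene 90.0 kb upstream, had 85.9, 85.8, 73.4 and 77.7 in the same order and carried a composite of E-box letters and GATA. A region between genes 49.1 kb upstream had 92.3, 96.6, 91.0 and 91.3. The SUV39H1 and 49.1 kb regions ranked higher in both ATRA libraries than in both controls. The GATA1 intron was thus the 1 region of this window that only the control cells had. The HDAC6 promoter was listed as 3 separate peaks in ATRA 1, and the 49.1 kb region as 2 in control 2, so these libraries counted 6 and 5 peaks over 4 regions each.

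GATA3 had the fewest peaks of the 7 genes, with 2 in ATRA 1, 1 in ATRA 2 and 0 in both controls. It was the 1 member with more peaks in both ATRA libraries, which held for 27.2% of genes. The difference of 1.5 peaks had a two-sided exact permutation p = 0.333. It was 0 in a window of 50 kb and in the upper 50% of each list by score. Its single shared peak was ATRA-specific and lay 88.0 kb downstream, at chr10:8175086-8175505, with percentiles of 43.9 in ATRA 1 and 28.7 in ATRA 2 and a RUNX motif. The nearest control-specific peak with a GATA motif was 707.9 kb away. The gene itself was without a peak in any library.

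TAL1 had 6 peaks in ATRA 1, 8 in ATRA 2, 5 in control 1 and 6 in control 2, and the groups overlapped (7.0 ± 1.41 against 5.5 ± 0.71, SD, n = 2 each, two-sided exact permutation p = 0.667). No peak lay on its promoter or in its gene body. Besides the upstream peak of the control cells, 2 peaks were ATRA-specific and absent from both controls. The one 17.5 kb downstream of the TSS, just past the end of the gene, had percentiles of 37.9 in ATRA 1 and 18.2 in ATRA 2, with RUNX and CEBP motifs. The one in an exon of STIL, 30.9 kb upstream, had 46.7 in ATRA 1 and 50.6 in ATRA 2. Neither had a GATA motif in the 200 bp about its centre, whereas the control-specific peak had 2 there. Over its whole width, the STIL exon peak did hold a GATA motif, so this contrast depends on the 200 bp searched.

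Regions further downstream of TAL1 were open in all 4 libraries. The region 52.8 kb downstream had percentiles of 82.5, 96.1, 80.5 and 92.0 in ATRA 1, ATRA 2, control 1 and control 2. That at 39.2 kb had 36.6, 79.4, 40.0 and 60.1, and that at 56.7 kb had 40.0, 46.5, 36.0 and 46.6. On the other side, 82.1 kb upstream of the TAL1 TSS, the promoter of STIL, a centriole gene, stood at 97.9 or above in each library. Over these 4 regions the median percentile was 61.2 in ATRA 1, 87.7 in ATRA 2, 60.3 in control 1 and 76.1 in control 2, so the libraries numbered 1 and those numbered 2 were alike across groups. The difference of 6.29 points (two-sided exact permutation p = 0.667) turned to -6.96 without ATRA 2 and to -1.62 without control 1.

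**Figure D2:**
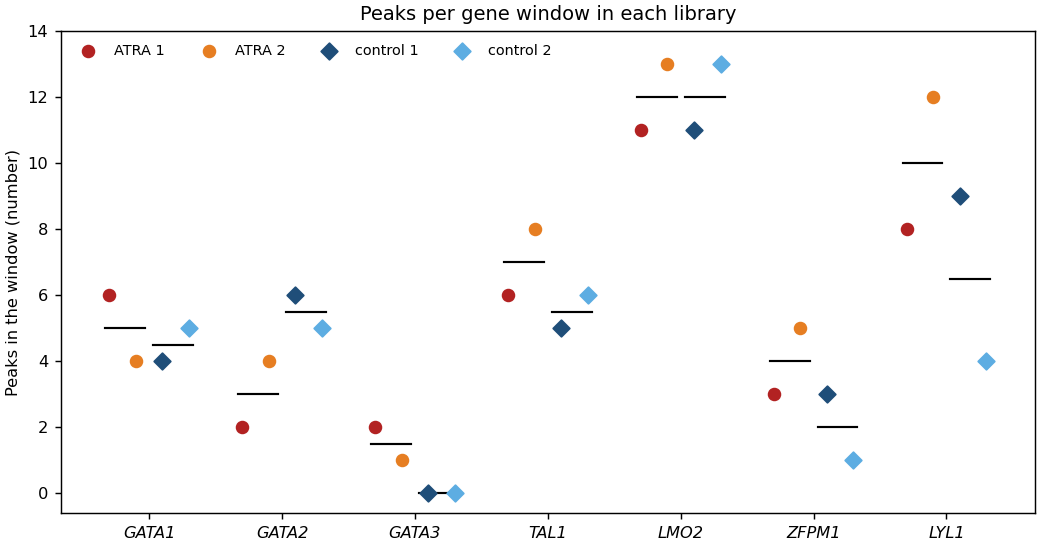
Number of peaks in the window of each gene in each library. Circles are ATRA libraries, diamonds control libraries and black lines group means. The groups do not overlap at GATA2, which is lower after ATRA, and at GATA3, which has 0 peaks in both controls.

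LMO2 had the most open window, with 11 peaks in ATRA 1, 13 in ATRA 2, 11 in control 1 and 13 in control 2. The means were equal at 12.0 ± 1.41 (SD, n = 2 each, two-sided exact permutation p = 1). It had 8 regions found in all 4 libraries, 1 control-specific peak and 0 ATRA-specific peaks. The control-specific peak, 96.1 kb upstream, had percentiles of 45.5 in control 1, 20.5 in control 2 and 54.8 in ATRA 2, and no peak in ATRA 1. It had none of the motifs searched.

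The regions with a GATA motif on either side of the LMO2 TSS ranked in opposite directions. In the intron 6.5 kb downstream, at chr11:33906760-33907400, the percentile was 87.2 in ATRA 1, 93.5 in ATRA 2, 26.6 in control 1 and 59.1 in control 2. At 1.9 kb upstream, at chr11:33915160-33915968, it was 41.9 in ATRA 1, 28.4 in ATRA 2, 88.1 in control 1 and 71.5 in control 2. The groups did not overlap at either. Between them, the region over the LMO2 TSS had 51.8, 74.4, 57.4 and 82.4 in the same order, and the groups overlapped there. The upstream region was the 1 region of the 7 windows lower in both ATRA libraries, against 12.9% of all peaks found in all 4 libraries. The 200 bp about both centres are printed from the plus strand of hg19, chr11:33906980-33907179 and chr11:33915464-33915663. Each had 1 GATA motif in the searched spellings and none of the PU.1, RUNX and CEBP motifs. The intron also held the uncounted spelling AGATAG. These regions were picked out after their values were seen.
LMO2 +6.5 kb: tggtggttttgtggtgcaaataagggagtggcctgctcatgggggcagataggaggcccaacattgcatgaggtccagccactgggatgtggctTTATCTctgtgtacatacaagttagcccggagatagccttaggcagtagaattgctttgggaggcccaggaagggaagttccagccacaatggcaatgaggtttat
LMO2 -1.9 kb: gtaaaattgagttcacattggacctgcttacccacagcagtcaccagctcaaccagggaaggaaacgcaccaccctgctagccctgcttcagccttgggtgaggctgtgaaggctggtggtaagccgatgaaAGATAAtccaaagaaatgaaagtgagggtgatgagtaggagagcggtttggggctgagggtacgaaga

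Widths followed the ranks at the intron and not upstream. The intron peak was 641 and 524 bp wide in ATRA 1 and ATRA 2, and 249 and 392 bp in control 1 and control 2. The upstream peak was 348 and 809 bp wide in ATRA 1 and ATRA 2, and 714 and 551 bp in the controls, so its groups overlapped in width.

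Another region with a GATA motif, 79.1 kb upstream of LMO2, had percentiles of 59.4, 64.2, 42.7 and 13.8 in ATRA 1, ATRA 2, control 1 and control 2. The region 38.5 kb upstream, with a CEBP motif, had 67.4, 77.8, 37.7 and 63.3. At the FBXO3 promoter, at the other end of the window, the values were 64.5, 71.9, 34.6 and 6.73. These 3 ranked higher in both ATRA libraries, as the intron did. The regions 20.7 kb upstream, with 68.4, 48.4, 65.1 and 61.1, and 34.0 kb downstream, with 30.8, 72.4, 65.7 and 61.0, did not.

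The median percentile over the 8 LMO2 regions was 61.9 in ATRA 1, 72.2 in ATRA 2, 50.1 in control 1 and 61.1 in control 2. The groups did not overlap, and the difference was 11.5 points with a two-sided exact permutation p = 0.333, the smallest possible here. It turned to -7.47 without ATRA 2, was 5.97 without control 1, and was 4.74 in a window of 50 kb (two-sided exact permutation p = 1). Over all 23616 overlapping peaks found in all 4 libraries the medians were 68.9, 79.2, 68.4 and 70.7, so ATRA 2 was the highest there too. The corresponding medians of the 3 GATA1 regions were 92.3, 96.6, 91.0 and 91.3, a difference of 3.29 points (two-sided exact permutation p = 0.333).

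Over the 4 genes that had any, 7 of the 16 regions found in all 4 libraries ranked higher in both ATRA libraries, against 29.1% of all such peaks. Of these, 4 were at LMO2, 2 at GATA1 and 1 at LYL1. In addition, 8 of the 16 were wider in both ATRA libraries than in both controls, against 37.3% of all such peaks. The median width of all such peaks was 395 bp in ATRA 1, 581 in ATRA 2, 390 in control 1 and 363 in control 2.

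**Figure D3:**
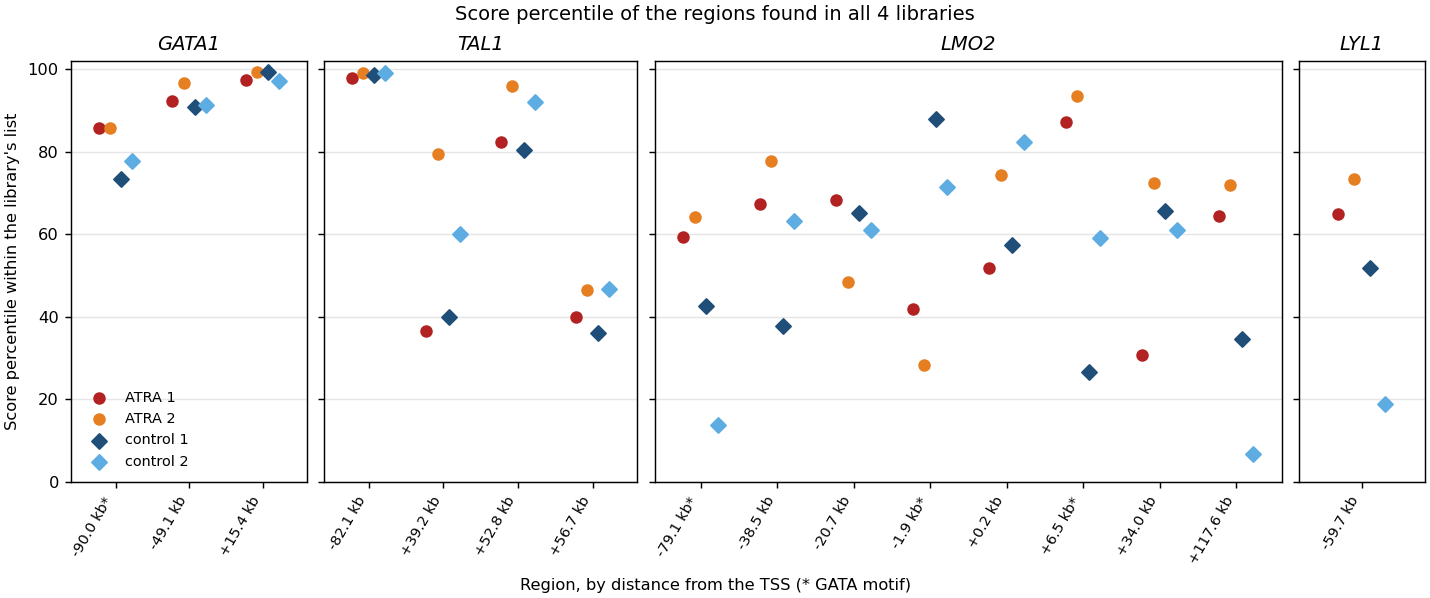
Score percentile, within each library's list, of the 16 regions found in all 4 libraries. Circles are ATRA libraries and diamonds control libraries, and an asterisk marks a GATA motif. At LMO2 the ATRA libraries lie above the controls at +6.5 kb and below them at -1.9 kb.

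ZFPM1 and LYL1 had a peak on their own promoter in 3 of the 4 libraries. At ZFPM1 the promoter peak, at chr16:88519013-88519809, had percentiles of 83.8 in ATRA 1, 71.2 in ATRA 2 and 63.9 in control 1, and there was none in control 2. At LYL1 the promoter peak, at chr19:13213380-13214548, had 80.2 in ATRA 1, 82.1 in ATRA 2 and 70.9 in control 1, and again none in control 2. Both were ATRA-specific by the rule only because of control 2, since control 1 had them at high ranks.

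Control 2 lacked promoter peaks more widely. Of the 3193 regions of the genome found in the other 3 libraries and missing from it, 26.7% lay at promoters, against 4.99% for ATRA 1, 5.04% for ATRA 2 and 6.57% for control 1. The median GC content of those regions was 48.8% for control 2 and 43.9% to 45.9% for the other 3 libraries. In the 7 windows, 6 regions were missing from control 2 alone, 4 from ATRA 1 alone, 1 from control 1 alone and 0 from ATRA 2 alone. The part of this in the ZFPM1 and LYL1 results was not tested.

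All 3 ATRA-specific peaks of ZFPM1 had this form. The promoter of ZC3H18, an RNA-processing gene 117.1 kb from the ZFPM1 TSS, had percentiles of 64.7 in ATRA 1, 17.2 in ATRA 2, 20.3 in control 1 and none in control 2. The ZC3H18 intron at 138.6 kb had 43.5, 28.6 and 43.2 in the same libraries, and none in control 2. The window held 3, 5, 3 and 1 peaks in ATRA 1, ATRA 2, control 1 and control 2 (4.0 ± 1.41 against 2.0 ± 1.41, SD, n = 2 each, two-sided exact permutation p = 0.667). It held 0 control-specific peaks and no region with a GATA motif.

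The LYL1 window held 8, 12, 9 and 4 peaks in the same order, and the groups overlapped (10.0 ± 2.83 against 6.5 ± 3.54, SD, n = 2 each, two-sided exact permutation p = 0.667). Of its 5 ATRA-specific peaks, 1 was absent from both controls, at the shared promoter of NACC1 and TRMT1, with percentiles of 62.2 in ATRA 1 and 34.3 in ATRA 2 and a PU.1 motif. A neighbouring peak at the same promoter had 55.2, 20.9 and 39.4 in ATRA 1, ATRA 2 and control 1. The IER2 promoter, an immediate early gene, had 41.1, 47.8 and 8.76 in those 3 libraries and a PU.1 motif. An NFIX intron 41.6 kb downstream had 29.4 in ATRA 1, 60.3 in ATRA 2, 42.9 in control 2 and no peak in control 1. Apart from the 1 peak, then, each was present in 1 of the controls.

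The 2 control-specific peaks of LYL1 both had a peak in ATRA 2. The one at the IER2 and STX10 promoters had percentiles of 50.4 in ATRA 2, 5.39 in control 1 and 26.8 in control 2. The one 64.6 kb upstream had 6.99 in ATRA 2, 15.2 in control 1 and 4.12 in control 2. Neither had a GATA motif in the 200 bp searched, and no region of the LYL1 window held one there. Over its whole width, the LYL1 promoter peak did hold a GATA motif. The single region found in all 4 libraries, 59.7 kb upstream, had 65.0, 73.4, 51.9 and 18.9.

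By the promoter rule, which asks for a peak centre from 1 kb upstream to 100 bp downstream of a TSS, none of the 7 genes had a promoter peak in all 4 libraries, against 37.8% of genes. In none of the libraries had GATA1, GATA2, GATA3 or TAL1 one, 4 of 7 against 44.6%. LMO2 had one by this rule in ATRA 1 and control 1, while in ATRA 2 and control 2 the broad peak over its TSS was centred outside it.

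**Figure D4:**
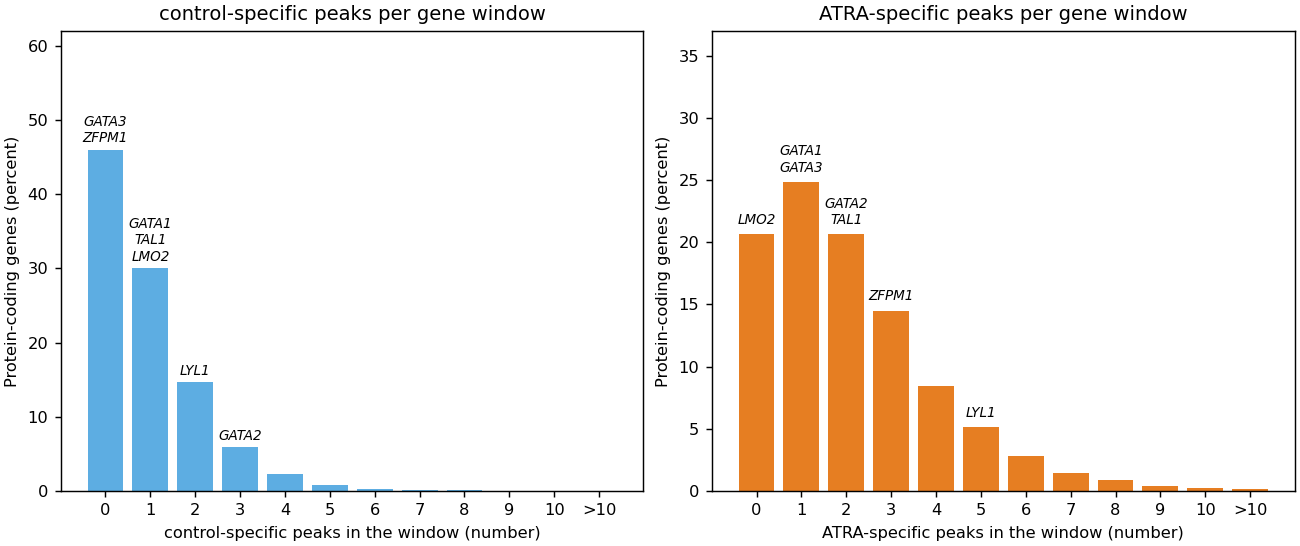
Share of all 20163 protein-coding genes by the number of control-specific peaks (left) and ATRA-specific peaks (right) in the window, in percent, with the 7 genes written above the bar they fall in. GATA2, with 3 control-specific peaks, lies to the right of 90.7% of genes, and the other 6 genes lie at 0 to 2.

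The genome had 2280 control-specific peaks with a GATA motif, of which the 2 at GATA1 and TAL1 lay in the 7 windows. Of the 8 control-specific peaks there, 4 had no peak in either ATRA library, against 35.4% of all. Of the 14 ATRA-specific peaks, 7 were without a counterpart in control 1 and control 2, against 49.6%. From the TSS, the nearest control-specific peak with a GATA motif was 3.2 kb away for GATA1, 7.2 kb for TAL1, 110.8 kb for GATA2, 317.9 kb for ZFPM1, 487.2 kb for LMO2, 707.9 kb for GATA3 and 2741.5 kb for LYL1. The median over all genes was 461166 bp, so 4 members lay nearer than that and 3 further.

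The other genes of the pathway were taken from a fixed list of 18 partners and related factors. A control-specific peak was found at 12 of them, against 54% of all genes, and an ATRA-specific peak at 15, against 79.4%, with medians of 1.5 and 4 peaks per gene beside 1 and 2 over all genes. FLI1, an ETS factor of megakaryocytes, had the most control-specific peaks, 5, beside 4 ATRA-specific, and CBFA2T3, a co-repressor, had 4 of each. KLF1, the erythroid Krüppel-like factor, and RUNX1, a core haematopoietic factor, each had 9 ATRA-specific and 0 control-specific peaks. RUNX1 had a promoter peak in all 4 libraries and KLF1 in none. As windows grow with the gene body and take in neighbouring genes, these counts are not those of the gene alone. A control-specific peak with a GATA motif was found at 9 of the 18, against 20.3% of all genes, and an ATRA-specific one at 10, against 21.1%. More peaks in both ATRA libraries were counted at 6, against 27.2%, and more in both controls at 0, against 2.31%.

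Of 13 genes known as targets of GATA factors in red cells, megakaryocytes and mast cells, 7 had a control-specific peak, against 54% of all genes, and 12 an ATRA-specific peak, against 79.4%, with medians of 1 and 2 peaks. A control-specific peak with a GATA motif was found at 4, against 20.3%, and an ATRA-specific one at 4, against 21.1%. More peaks in both ATRA libraries were counted at 8, against 27.2%, and more in both controls at 0. MS4A2, which encodes the beta chain of the IgE receptor of mast cells, had 2 control-specific peaks, both with a GATA motif, and 1 ATRA-specific peak. EPOR, the erythropoietin receptor, had 4 ATRA-specific peaks and 0 control-specific, and KIT, the stem cell factor receptor, had 4 and 1. A promoter peak was present in all 4 libraries at 1 of the 13, ITGA2B, against 37.8% of all genes, and in no library at 12, against 44.6%.

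The labelled cell type was checked at promoters. Of 10 granulocyte lineage markers, 5 in ATRA 1 and 6 in each other library had a promoter peak. SPI1, LYZ, CEBPE and ITGAM, 4 of the 10, had one in all 4 libraries, against 37.8% of all genes. AZU1 and ELANE, 2 of the 10, had one in no library, against 44.6%. The share in all 4 libraries lay near that of all genes, so this check does not settle the cell type. No library had one at any of 6 erythroid or 6 lymphoid markers, against the same 44.6% of genes with none. Of 6 epithelial and stromal markers, 2, 2, 1 and 2 had one in ATRA 1, ATRA 2, control 1 and control 2.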

How the data were processed

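ATAC-seq was performed in HL-60 cells, with 2 replicates treated with ATRA and 2 with ethanol, which the study describes as biologically independent. Groups came from the sample titles. Per the study's methods and the submitters' processing notes, the authors trimmed adapters with cutadapt, aligned reads to hg19 with Bowtie (Bowtie2 in the notes) and called peaks in each library with MACS2 at default settings. Versions, a Tn5 shift, removal of duplicates and a blacklist were not given in the sources used here, so peak edges may be displaced and repeats may hold peaks. The deposited lists gave positions, used as given and printed 1-based, and a peak score by the authors, from 50 to a ceiling of 3100, on a scale not stated. Longer lists may come from deeper libraries.

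Scores were converted to percentiles within each list. The reference was GRCh37 with GENCODE release 44, and 0 peaks lay past a chromosome end. Shared peaks overlapped the other replicate by at least 1 bp and were merged. Differences were tested with the two-sided exact permutation test over libraries, for 7 peak counts and 3 percentiles (at least 3 regions), which cannot give a p under 0.333, so p was not adjusted. All members were named with each specific peak, and of the pathway and target lists the genes with the most specific peaks. Where 3390 genes tied with a member, none was named. The values of 1 gene of the target list are not reported here. The members, lists and tests were chosen with earlier results of these data known. The code was tested on simulated lists. bedtools 2.31.1, samtools 1.23.1, pysam 0.24.0, Python 3.11.15, numpy 2.4.6, pandas 2.3.3 and matplotlib 3.10.9 were used. Alternatives were other windows (50 kb, the gene body and, chosen after seeing the data, 150 kb), equal list lengths, the upper 50% by score, stricter specificity, an overlap of 50% of the shorter peak, peaks of 200 bp, the motif in the whole peak, a replicate block and leaving out each library.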

Additional observations from a re-analysis of the deposited data

How the results depend on the processing

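Of 154 recomputed values, 110 kept their direction or stayed within 1.5 times, 20 counts moved further and 6 values changed sign. The 110 include the replicate-block values of the 7 genes, which are the same by construction. With equal list lengths, the upper 50% or peaks of 200 bp, percentiles were kept from the full lists. Percentile differences could then change only through which regions were included, so the 110 is no measure of robustness. A further 10 differences in peaks became 0, at GATA3 with a 50 kb window and in the upper 50% by score among others, and the difference of 0 at LMO2 became -1.0 to 1.0 in 8 settings. The GATA2 difference stayed negative in all but 1 of its alternatives, from -4.0 (equal list lengths, and the 150 kb window) to -1.5 peaks, and was 0 within the gene body, which holds no peak. From 8 control-specific peaks, the count fell to 4 when no peak was allowed in either library of the other group, 4 in the upper 50% by score, 4 with a 50 kb window and 1 in the gene body, and ran from 4 to 14 when each library was left out. From 14 ATRA-specific peaks, it came to 7 under the same demand, 7 in the upper 50% by score, 9 with equal list lengths, 2 in the gene body and 26 with a 150 kb window, and from 8 to 26 when each library was left out. The 2 control-specific peaks with a GATA motif became 1 in the gene body and 1 in the upper 50%, and 2 to 4 when each library was left out. The 0 ATRA-specific peaks with the motif became 2 with the motif searched in the whole peak, 2 in the upper 50%, and 0 to 1 when each library was left out. The 2 in the upper 50% were regions found in all 4 full lists, where the cut removed control peaks. The GATA1 difference in peaks (0.5) was -1.0 in the gene body and -0.5 in the upper 50%, and -0.5 to 1.5 without 1 library. Without 1 library, the percentile difference at LMO2 was -7.47 to 17.0 and at TAL1 -6.96 to 19.5. The cause of these moves was not tested.

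With the replicate number as a block, the difference per gene was the same by construction, -2.5 peaks at GATA2 for example, and the sign-flip p over 2 pairs was 0.5 to 1, where 0.5 is the smallest possible. The labels do not say that a number marks a shared culture, and the correlation of same-numbered deviations over all gene windows was 0.166. With 2 libraries a group no comparison here could give a p under 0.333, and presence of a weak peak depends on a depth that is unknown.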
